A study of Mus musculus with 4 samples.

Results

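The 34 genes described here encode parts of the machinery that separates chromosomes in mitosis, from cyclins and kinases to kinetochore and spindle proteins. They were found as the rows of the deposited feature tables whose symbols equal the 34 names, among 32285 features in all. Each name matched 1 feature, and all 34 had at least 1 UMI, a unique molecular identifier that marks 1 captured RNA molecule. RNA of single cells was measured in droplets from mouse pancreatic ductal adenocarcinoma, the common cancer of the exocrine pancreas, with 1 library for each of 4 groups. GPH was read, from its title and the letters the series defines, as gemcitabine, at 60 mg per kg into the peritoneum, with paricalcitol and hydroxychloroquine. Its treatment label reads GnP-H, a form also used for gemcitabine with nab-paclitaxel, and breaks off after the gemcitabine dose. Whether GPH animals also received nab-paclitaxel, which acts on spindle microtubules, is not settled by the labels, and this limits every GPH value below. G received gemcitabine, a cytidine analogue that blocks the copying of DNA. PH received the vitamin D analogue paricalcitol and the lysosome inhibitor hydroxychloroquine. Control received PBS. The labels give no strain, tumour model, age or time of sampling for any group. Each library pooled tumour pieces of 3 animals, so the spread between animals is unknown. No test was made between libraries, and the intervals given below cover counting error only.

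Entry into mitosis is driven by Cdk1 bound to cyclins A and B. Polo and Aurora kinases then build the spindle, kinetochores attach chromosomes to it, and the spindle checkpoint restrains the anaphase-promoting complex until all are attached. With its activator Cdc20 and its E2 enzyme Ube2c, that complex marks cyclin B for destruction and ends mitosis. The transcripts of most of these genes accumulate in G2 and M phase; sums over a tissue therefore depend on how many cells divide. Many such promoters hold CCAAT boxes, bound by the factor NF-Y, and a cell cycle genes homology region, or CHR, bound by the DREAM and MuvB complexes.

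Both promoter elements were searched in the RefSeq promoter table of GRCm38.p6, which spans 250 bases before to 50 bases after each annotated start and held 29 of the 34 members. Ccna2, Aurkb, Tpx2, Pimreg and Kif20a were not matched. The motifs were CCAAT, and TTTGAA or TTTAAA for the CHR, each read on both strands, where TTTAAA is its own reverse complement, and matches of different motifs may overlap. CCAAT was found in 24 of 29 member genes (82.8%), against 41.1% of 27025 genes in the table, and at least 2 copies in 18 members (62.1%), against 13.3% of genes. TTTGAA was found in 20 members (69.0%), against 20.2%, and TTTAAA in 8 (27.6%), against 14.9%. CCAAT together with either CHR form was found in 21 members (72.4%), against 12.2% of genes. A match is a description of letters and not a measured binding site. Birc5, Knstrn, Nusap1, Tacc3 and Kif2c had no CCAAT in the window. The 120 bases before the start are printed for Ccnb1, Ccnb2, Cdc20 and Ube2c, because they show the paired boxes. These genes encode cyclin B and the activator and E2 enzyme of the complex that marks it for destruction. Capitals mark the motifs.
Ccnb1: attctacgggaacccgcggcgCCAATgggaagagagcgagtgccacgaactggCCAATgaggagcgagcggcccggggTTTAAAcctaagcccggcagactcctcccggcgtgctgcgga
Ccnb2: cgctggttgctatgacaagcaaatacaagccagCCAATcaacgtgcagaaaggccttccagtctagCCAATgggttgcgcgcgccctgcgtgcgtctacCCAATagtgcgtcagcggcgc
Cdc20: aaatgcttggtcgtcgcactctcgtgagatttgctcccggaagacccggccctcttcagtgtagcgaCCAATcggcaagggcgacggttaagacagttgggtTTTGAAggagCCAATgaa
Ube2c: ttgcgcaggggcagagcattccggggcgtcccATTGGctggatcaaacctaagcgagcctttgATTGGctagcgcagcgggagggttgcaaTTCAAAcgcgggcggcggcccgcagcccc
They lie at chr13:100786487-100786606 (minus strand), chr9:70421555-70421674 (minus strand), chr4:118437344-118437463 (minus strand) and chr2:164769809-164769928 (plus strand), in the order printed. The first 2 boxes printed start 32 bases apart in Ccnb1, 33 in Ccnb2, 45 in Cdc20 and 31 in Ube2c. In Ube2c they read ATTGG, that is, they lie on the other strand.

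The libraries differed in depth and in the cells they held. They had 143298547 to 190110092 UMIs, and GPH was deepest per kept cell, with a median of 20015 UMIs, against 4607 to 9636 in the other 3. Of all barcodes, 41.0% in GPH had more than 20% mitochondrial UMIs and were left out, against 12.7% to 15.6% in the others. Between 17 and 79 barcodes were shared by any pair of libraries, at most 0.594% of the smaller library. A total of 5 classes of cells were used, built from clusters made without cell cycle genes. Vimentin-high cells, chosen by the mesenchymal filament gene Vim with Ptprc, Xist and Krt19 low, numbered 1909 in GPH, 2095 in G, 10877 in PH and 8360 in control. Krt19-high cells, with the ductal keratin gene, numbered 2123 in GPH and 1310 in G, against 5 in PH and 1 in control. Neither class was tested to be tumour. Of the 9 vimentin-high clusters, those numbered 0, 1 and 2 also had 3 to 5 of the 7 fibroblast markers above the marker limit, so the class is called by its leading gene only. T cells numbered 52, 2884, 374 and 357 in GPH, G, PH and control, NK cells 11, 1074, 111 and 270, and macrophages 51, 1793, 351 and 256.

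A cell was called module-positive when the 34 genes together had at least 2 UMIs. Because deep cells reach that number more easily, each cell was first thinned at random to 2000 UMIs, and shallower cells were left out. Among vimentin-high cells, 15.5% were module-positive in GPH (280 of 1808, exact 95% interval 13.8 to 17.2), 36.8% in G (723 of 1967, 34.6 to 38.9), 25.8% in PH (2735 of 10620, 24.9 to 26.6) and 26.7% in control (2160 of 8095, 25.7 to 27.7). GPH was thus lowest and G highest, while the intervals of PH and control overlapped. The share in G was 1.38 times that in control (1.26 to 1.50), and the share in PH 0.965 times (0.912 to 1.02). The share in GPH was 0.580 times that in control (0.511 to 0.658), 0.601 times that in PH (0.530 to 0.680) and 0.421 times that in G (0.366 to 0.484). With clusters at equal weight, an alternative described further on, GPH to control was 1.03 and GPH to PH 1.07. A stricter choice of at least 5 UMIs of 2000 kept the order, with 8.74% in GPH, 24.1% in G, 14.2% in PH and 15.1% in control. Without thinning the shares were 56.8%, 62.9%, 59.9% and 65.7% in GPH, G, PH and control, so that G stood below control, at 0.957 times. The median depth of vimentin-high cells was 12328 UMIs in GPH, 9858 in G, 9242 in PH and 10856 in control.

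**Figure D1:**
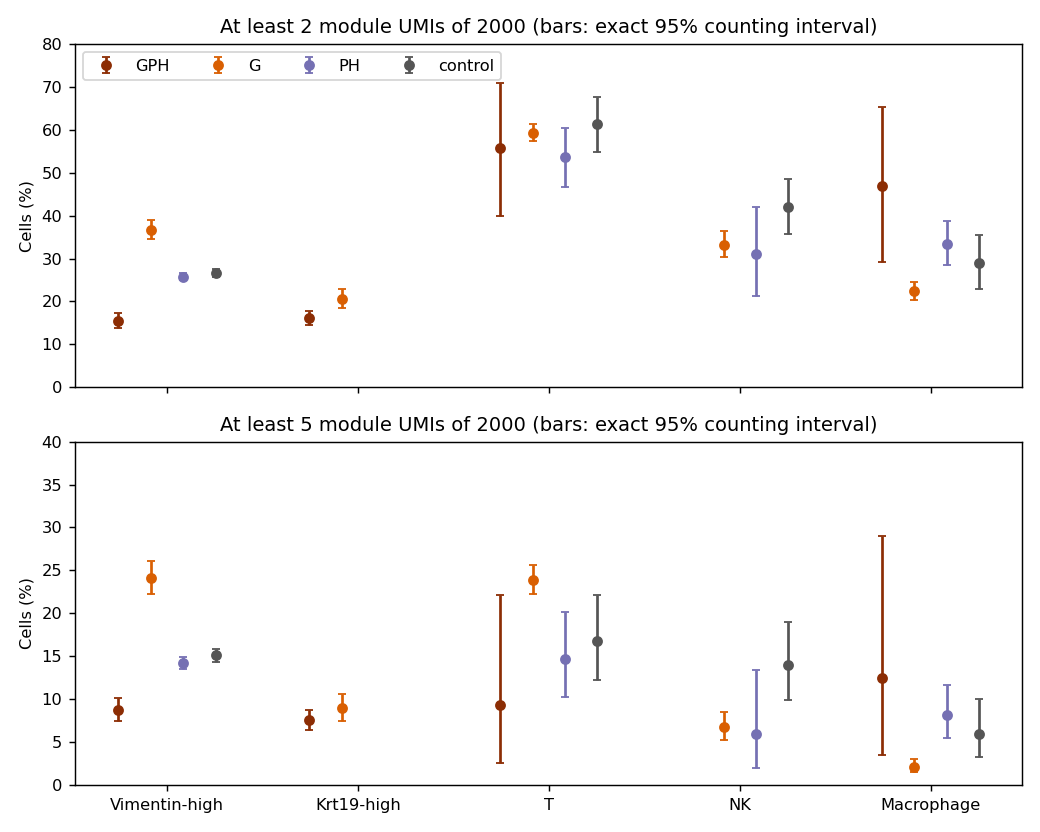
Share of cells, in percent, with at least 2 (top) or at least 5 (bottom) UMIs of the 34 genes after thinning to 2000 UMIs, by class and library; points are libraries and bars exact 95% counting intervals. In vimentin-high cells G stood highest, at 36.8% and 24.1%, and GPH lowest, at 15.5% and 8.74%; classes with under 50 cells in a library are not drawn.

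The members occurred in the same cells. When each member was left out of the choice of its own cells, all 34 were higher in positive than in negative vimentin-high cells of each of the 4 libraries. The median ratio over members was 44.5 in GPH, 25.7 in G, 28.9 in PH and 20.03 in control. Arl6ip1, which shapes the endoplasmic reticulum, had a much smaller ratio. Its ratio was 2.11 in GPH, 2.88 in G, 2.01 in PH and 2.03 in control, and that of the kinase subunit gene Cks2 was 5.62, 4.87, 4.25 and 4.30. Leaving both out of the choice gave shares of 12.8% in GPH, 33.6% in G, 22.1% in PH and 23.1% in control.

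Over all vimentin-high cells, most members were highest in G and lowest in GPH. Levels are given in CPM, the UMIs of a gene scaled to a fixed total of UMIs in the cells of the class. G held the highest level of 33 of the 34 members and GPH the lowest of 31. Ube2c, the E2 enzyme of the anaphase-promoting complex, was at 126 CPM in GPH, 409 in G, 186 in PH and 266 in control. Top2a, the topoisomerase that untangles sister chromosomes, was at 161, 279.6, 187 and 204 CPM in the same order. In both genes G stood highest and GPH lowest, with PH below control. Mki67, the Ki-67 protein that coats mitotic chromosomes, was at 36.4 CPM in GPH, 66.4 in G, 59.0 in PH and 43.4 in control.

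Against control, G was higher in 33 of 34 members, with a median log2 ratio of 0.62 over the 27 measured ones (at least 20 CPM and 20 UMIs in the pair). At least 1.5-fold higher were 15 of these 27 and none was lower, where 3.24% of all measured genes were higher and 6.35% lower by that much. Pimreg, a mitotic regulator that binds the clathrin assembly protein CALM, was the one not higher, at 35.5 CPM in G and 37.1 in control (ratio 0.957, 0.893 to 1.03). The largest ratios were those of Arl6ip1 (2.50), of the kinetochore motor gene Cenpe (2.21, 2.09 to 2.35) and of the kinetochore gene Cenpf (1.96, 1.88 to 2.03).

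Between PH and control the members differed in both directions. Of the 34, 21 were higher and 13 lower in PH than in control, with a median log2 ratio of 0.09, and none of 26 measured ones passed 1.5-fold in either direction. Among all measured genes, 5.28% were at least 1.5-fold higher and 7.44% lower in PH. Unfiltered, Bub1b alone was past 1.5-fold, with 18.2 CPM in PH against 11.3 in control. Cenpf reached 106 CPM in PH, against 74.5 in control (ratio 1.42), and Cenpe 39.0 in PH, against 27.5 (1.42). Kif23, a kinesin of the central spindle, reached 29.6 CPM in PH, against 20.9 in control (1.42). Nusap1, which bundles spindle microtubules, had 55.4 CPM in PH, against 80.8 in control (0.686), and Ube2c had a ratio of 0.699. Cdk1 had 48.3 CPM in PH, against 59.7 in control (0.809).

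Most members were lower in GPH than in each of the other 3 libraries. The libraries held the vimentin-high clusters in different proportions, as given further on, and the part of this in these levels was not tested. Against G, all 34 members were lower in GPH, and all 26 measured ones by at least 1.5-fold, where 7.63% of all measured genes were lower by that much. Their median log2 ratio was -1.19, beside 0.26 for all measured genes. Against PH, 32 of 34 were lower and 16 of 26 measured ones by at least 1.5-fold (background 8.34%), with a median of -0.67. Against control, 31 of 34 were lower and 12 of 26 by at least 1.5-fold (background 12.0%), with a median of -0.52. Aurkb (11.2 CPM in GPH), Cdca8 (17.9), Spc25 (13.3) and Pimreg (15.5) passed the minimum level only through PH or control and are among those counted. Against PH this also held for Tacc3 (17.9) and Kif23 (18.8). Nothing is therefore read from the counts at 1.5-fold. With no minimum level, the medians over the 34 members were -1.19 against G, -0.61 against PH and -0.48 against control. The comparisons of GPH share libraries, so their values are not independent of each other. Birc5, the survivin subunit of the chromosomal passenger complex, was lowest of all in GPH, at 34.02 CPM, against 129.9 in G, 89.1 in PH and 91.8 in control. Its ratio to control was 0.371 (0.347 to 0.395). Cdca3, which helps to trigger mitotic entry, was at 21.1 CPM in GPH, 69.4 in G, 46.4 in PH and 44.0 in control. Arl6ip1 was higher in GPH than in control, at 30.5 against 21.6 CPM, and lower than the 53.9 CPM of G.

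Levels were also compared in module-positive cells only, each member again left out of the choice of its cells. The choice itself asks for a minimum of module UMIs, and the members occur in the same cells. It can therefore even out levels between libraries, and does not tell share and level apart. All 34 members were then measured in every vimentin-high comparison, and the differences between libraries shrank. The median log2 ratio was 0.16 for G against control, 0.16 for PH against control and 0.15 for GPH against control. It was -0.01 for GPH against PH and -0.09 for GPH against G, where it was -1.19 over all cells. At least 1.5-fold higher in G than in control were 2 of 34 members (background 1.97%) and none was lower (6.5%). For PH against control these counts were 2 higher (5.53%) and 0 lower (6.49%), and for GPH against control 3 higher (20.7%) and 1 lower (10.4%). For GPH against PH 1 member was higher (17.1%) and 1 lower (8.82%), and for GPH against G 1 was higher (24.3%) and 2 lower (5.46%). On the log2 scale, the ratio of shares of GPH to G was -1.25 and that of G to control 0.46, beside medians over all cells of -1.19 and 0.62. The medians within positive cells depend on how many UMIs decide which cells are positive. Thinned to 5000 UMIs, the median within positive cells was 0.45 for G against control and -0.45 for GPH against G. Without thinning, the median within positive cells was 0.63 for G against control and -1.11 for GPH against G.

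**Figure D2:**
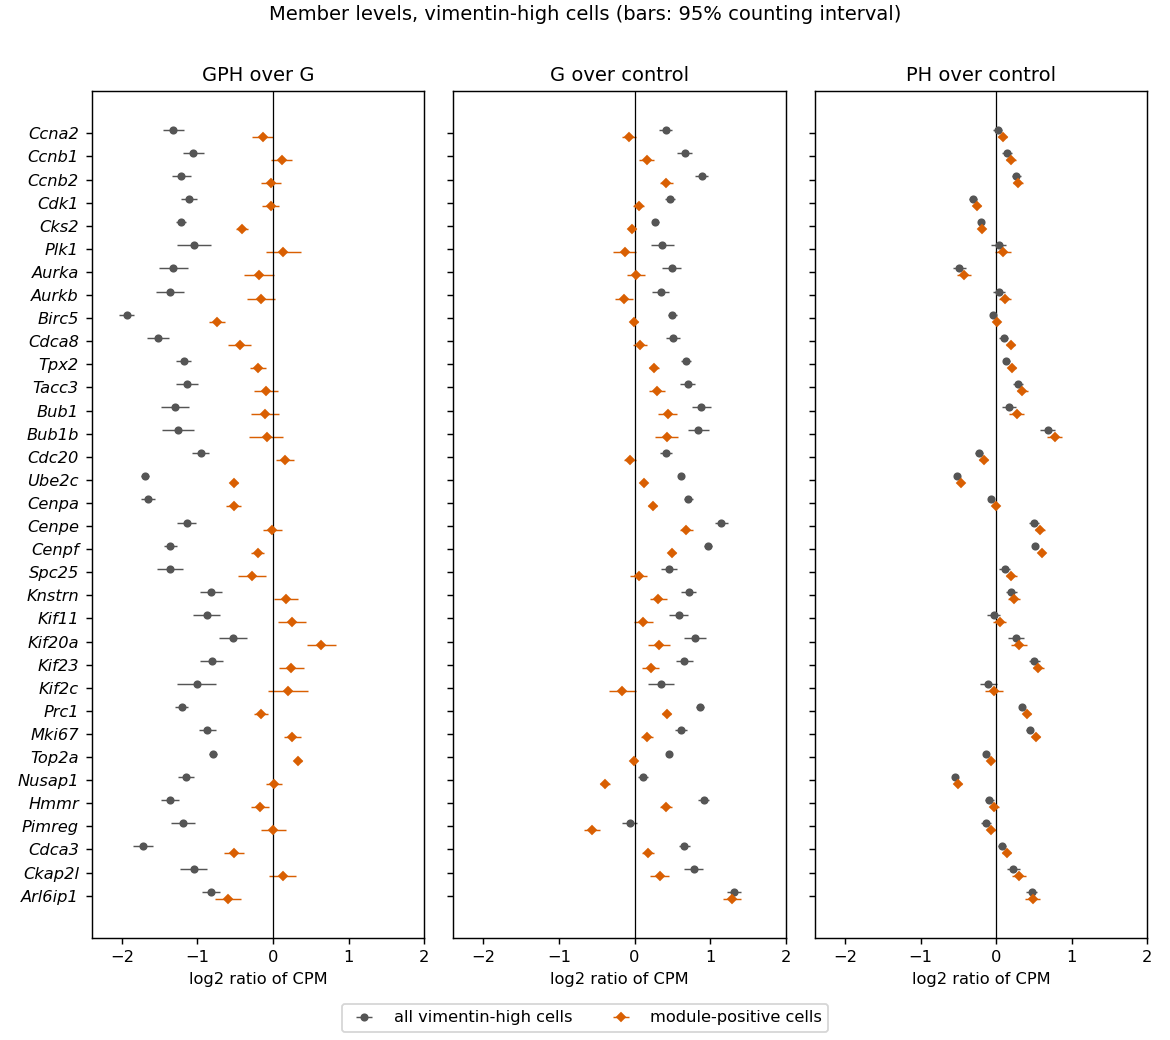
Log2 ratio of CPM for each of the 34 members in vimentin-high cells, GPH over G, G over control and PH over control; circles are all cells of the class, diamonds module-positive cells chosen by the other 33 members, and bars 95% counting intervals. For GPH over G the circles lie near the median of -1.19 and the diamonds around -0.09.

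Some members differed between libraries within module-positive cells. Among the kinases and the passenger complex, Birc5 was at 139.7 CPM in positive cells of GPH, against 234 in G, 238 in PH and 235 in control. The other 3 libraries lay close together, and the ratio of GPH to control was 0.594 (0.556 to 0.634). Aurkb, the kinase of the same complex, was at 47.0 CPM in GPH, 52.4 in G, 62.5 in PH and 57.5 in control. Plk1, the Polo kinase, lay between 30.5 and 35.6 CPM in the 4 libraries. Aurka, the kinase of the spindle poles, was at 42.1 CPM in GPH, 48.1 in G, 35.2 in PH and 47.4 in control.

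Among cyclins and their kinase, the levels in positive cells lay close together. Ccnb1 was at 86.5 CPM in GPH, 79.9 in G, 81.9 in PH and 71.4 in control. Ccnb2 was at 98.7, 101, 92.0 and 75.2 CPM in the same order, so that control was lowest for both B cyclins. Cdk1 was at 144 CPM in GPH, 147 in G, 119 in PH and 142 in control, with PH lowest. Cks2 was at 253 CPM in GPH, 336 in G, 301 in PH and 344 in control.

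Kinetochore and spindle genes came next. Cenpe was at 110.5 CPM in positive cells of GPH, 111 in G, 103 in PH and 69.1 in control, so that the 3 treated libraries stood above control. Cenpf was at 234, 269.6, 291 and 191 CPM in GPH, G, PH and control. Kif20a, a kinesin of cytokinesis, was at 55.3 CPM in GPH, 35.5 in G, 35.0 in PH and 28.4 in control. Bub1b, the checkpoint kinase BubR1, was at 33.7 CPM in GPH, 35.8 in G, 45.5 in PH and 26.6 in control, highest in PH. Cenpa, the histone that marks centromeres, was at 152 CPM in GPH, 218 in G, 184 in PH and 184 in control. Of the genes that drive exit from mitosis, Ube2c was at 528 CPM in GPH, 756 in G, 502 in PH and 695 in control, while Cdc20 lay between 104 and 125 CPM.

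Among chromosome genes, Top2a was highest in GPH and Mki67 in PH. Top2a was at 634 CPM in positive cells of GPH, against 504 in G, 481 in PH and 505 in control, and Mki67 at 143 in GPH, 120.1 in G, 154 in PH and 107 in control. Hmmr, a microtubule-binding protein of the spindle, was at 112 CPM in GPH, 127 in G, 93.4 in PH and 94.96 in control. The remaining members, Ccna2, Cdca8, Tpx2, Tacc3, Bub1, Spc25, Knstrn, Kif11, Kif23, Kif2c, Prc1, Nusap1, Pimreg, Cdca3 and Ckap2l, stayed within 1.5-fold in each of the 5 comparisons. Arl6ip1 was at 51.4 CPM in GPH, 77.6 in G, 44.5 in PH and 31.7 in control.

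The share of module-positive cells also depended on which vimentin-high cells a library held. The clusters were made without cell cycle genes, yet clusters 3 and 8 were still led by such genes, among them Ube2c, Top2a and Pimreg. They held 7.39% of the vimentin-high cells in GPH, 36.4% in G, 36.9% in PH and 47.8% in control. Cluster 1, led by Has2, Ptn and Inhba, held 46.1% in GPH, 19.9% in G, 11.3% in PH and 2.51% in control. In cluster 1, 7.98% of cells were module-positive in GPH, 14.2% in G, 10.2% in PH and 11.4% in control. In cluster 0, led by Acta2, Mfap4 and Prelp, these shares were 13.0%, 21.4%, 8.92% and 8.93%, and in cluster 3 58.3%, 56.0%, 51.0% and 43.1%. G stood above control in all 8 clusters with at least 20 cells in every library, and GPH above control in 4 of the 8. GPH stood above G in 1 of the 8. Several of these shares rest on few cells, such as 23 cells of cluster 2 in G and 22 of cluster 5 in GPH before thinning. With those 8 clusters at equal weight, the shares were 23.6% in GPH, 37.8% in G, 22.0% in PH and 22.8% in control. The ratio of GPH to control then turned to 1.03 and that of GPH to PH to 1.07, while G to control was 1.66 and GPH to G 0.624.

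**Figure D3:**
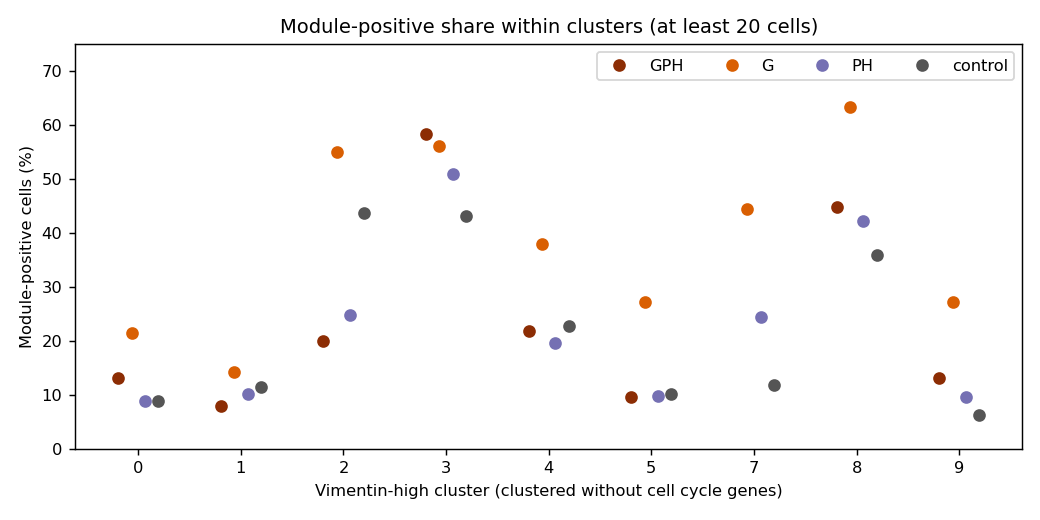
Module-positive share, in percent, within each vimentin-high cluster that was made without cell cycle genes, for clusters with at least 20 cells in the library; each point is 1 library. G lies above control in every cluster shown, while GPH lies above control in some and below in others.

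The libraries also differed in transcripts of the Y chromosome. Kdm5d, Uty, Eif2s3y and Ddx3y together were at 6.77 CPM in module-positive vimentin-high cells of GPH, 6.36 in G, 0.386 in PH and 0.0224 in control. In module-negative cells they were at 14.1, 12.0, 0.470 and 0.0934 CPM. Their part in the result was not tested. Ptprc, which encodes CD45 of leukocytes, was at 0, 4.42, 0.472 and 1.17 CPM in positive vimentin-high cells of GPH, G, PH and control, against 563 CPM in positive T cells of G. Cd3e, a chain of the T cell receptor complex, was at 49.95, 14.4, 10.2 and 4.98 CPM in the same 4 groups of vimentin-high cells, against 418 CPM in positive T cells of G. Ptprc was thus at 0 in GPH, where Cd3e was highest, and the part of these transcripts in the results was not tested.

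Krt19-high cells could be compared only between GPH and G. Module-positive were 16.2% in GPH (312 of 1930, 14.5 to 17.9) and 20.6% in G (265 of 1288, 18.4 to 22.9), a ratio of 0.786 (0.665 to 0.929). The class lay in different clusters in the 2 libraries. Cluster 23, led by Crisp1, Rbp4 and Gsta3, held 666 of the 1930 thinned cells in GPH and 835 of 1288 in G, and 21.9% and 20.7% of them were positive. Cluster 24, led by Tff3, Tff1 and Lypd8, held 1200 cells in GPH and 446 in G, with 12.8% and 20.6% positive. GPH was thus lower in cluster 24 and not in cluster 23. Without thinning, the shares were 85.8% in GPH and 85.1% in G, a ratio of 1.01. Over all Krt19-high cells, 19 of 34 members were lower in GPH and 15 higher, and the median log2 ratio of the 15 measured ones was -0.18, beside 0.24 for all measured genes. Birc5 alone passed 1.5-fold, at 43.4 CPM in GPH and 67.4 in G (ratio 0.645, 0.614 to 0.677), where 3.03% of measured genes were lower by that much. Within positive cells, 27 of 34 members were higher in GPH, and 5 of 32 measured ones by at least 1.5-fold (background 18.3%), while none was lower by that much (2.69%). The median there was 0.25, near the 0.26 of all measured genes. Cdc20 was at 99.5 CPM in positive cells of GPH and 52.9 in G (1.88, 1.71 to 2.07), and Plk1 at 40.2 and 25.6 (1.57). Birc5 was at 195 CPM in positive cells of GPH and 245 in G.

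In immune cells the same count of 2 UMIs took in many cells that carried little else of the module. Of T cells, 55.8% were module-positive in GPH, 59.3% in G, 53.6% in PH and 61.4% in control. Of neutrophils in G, which do not divide in tissue, 42.9% of 91 cells were positive. Without Arl6ip1 and Cks2 this background fell to 5.49% (1.81 to 12.4), and at 5 UMIs it was also 5.49%, each time 5 of the 91 cells. Shares of positive T cells by the 2-UMI rule are therefore not read as dividing cells. Arl6ip1 made up 22.1% of module UMIs in positive T cells of G, 19.4% in PH and 27.2% in control, against 0.779% to 1.66% in positive vimentin-high cells. Over all T cells it stood at 554 CPM in G, 410.5 in PH and 562 in control.

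**Figure D4:**
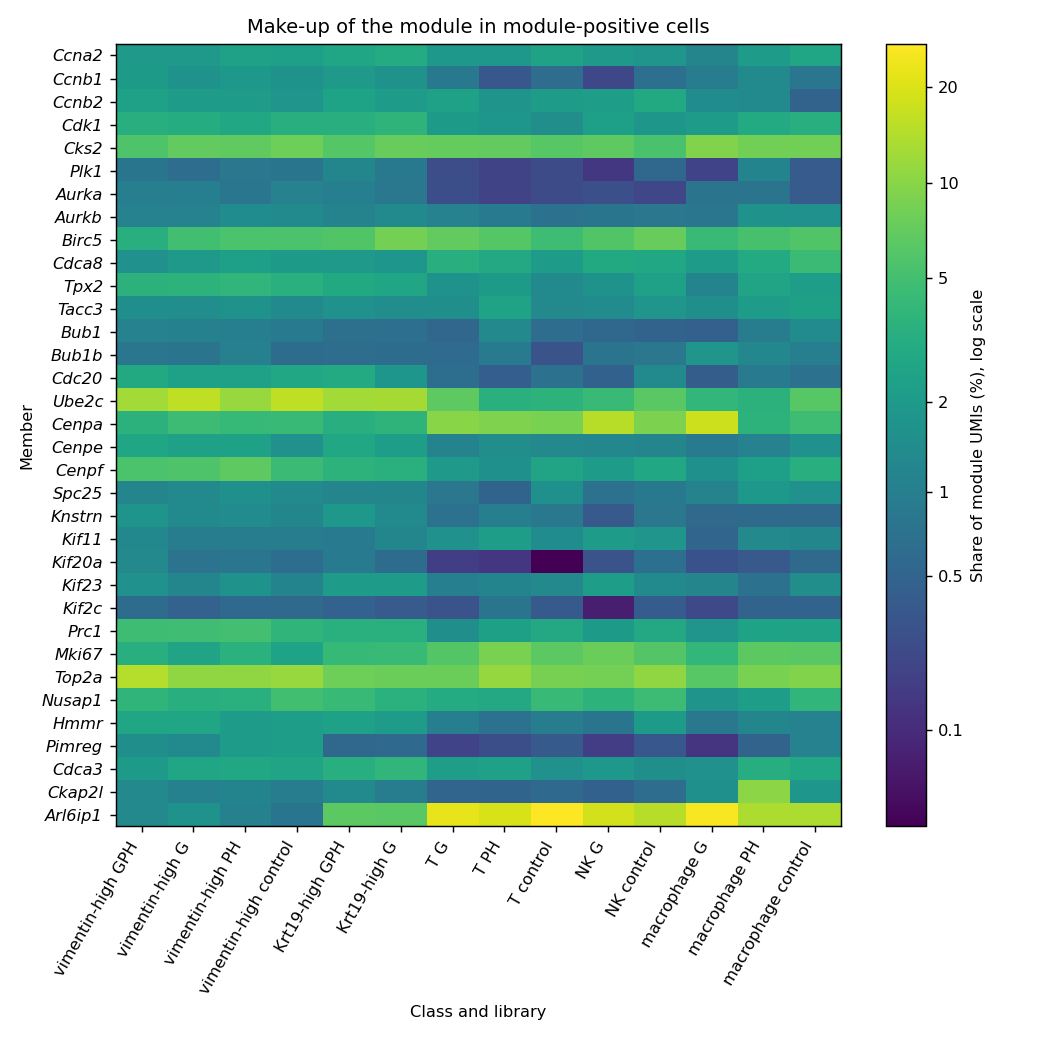
Share of module UMIs, in percent on a log colour scale, that each member gave in module-positive cells, by class and library with at least 50 such cells. Arl6ip1 gave 13.5% to 27.2% in T, NK and macrophage columns and under 2% in vimentin-high columns, where Ube2c and Top2a led.

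At 5 UMIs, T cells of G stood above the others. The shares were 23.9% in G (581 of 2429, 22.2 to 25.7), 14.7% in PH (31 of 211, 10.2 to 20.2) and 16.7% in control (39 of 233, 12.2 to 22.2), and 4 of 43 cells in GPH (9.30%, 2.59 to 22.1). Without Arl6ip1 and Cks2, 34.3% were positive at 2 UMIs in G, 24.2% in PH and 25.8% in control. Over all T cells, 28 of 34 members were higher in G than in control, and 10 of 22 measured ones by at least 1.5-fold (background 12.1%), with a median of 0.48. Among the 10, Aurkb, at 24.0 CPM in G and 12.0 in control, passed the minimum level only through G. Ube2c was at 148 CPM in G, 45.7 in PH and 62.0 in control, and Birc5 at 154, 80.4 and 78.0. Top2a was at 172, 170 and 153 CPM and Mki67 at 131, 118 and 111, so that G differed from control less in these. For PH against control the median was -0.11, with 1 of 20 measured members at least 1.5-fold higher (background 7.63%) and 4 lower (12.4%). Cluster 17, which held T cell receptor genes of the gamma and delta kind beside Ly6c2, was left out of the T cells. With it, 6 measured members in place of 10 were at least 1.5-fold higher in G over all T cells, and the median was 0.24. Within positive T cells the median of G against control was 0.15 without that cluster and -0.01 with it.

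NK cells had lower levels of most members in G than in control, while PH held 111 NK cells and GPH only 11. At 5 UMIs, 6.76% were positive in G (65 of 962, 5.25 to 8.53), 5.95% in PH (5 of 84, 1.96 to 13.3) and 14.0% in control (34 of 243, 9.89 to 19.0). Neutrophils of G, the background, stood at 5.49% (1.81 to 12.4) by that rule. The NK shares of G and PH lay within that interval and are not read as dividing cells, while that of control lay above it. This depends on the rule. At 2 UMIs without Arl6ip1 and Cks2, 17.9% were positive in G (15.5 to 20.4), 11.9% in PH (5.86 to 20.8) and 24.7% in control (19.4 to 30.6). Neutrophils of G stood at the same 5.49% (1.81 to 12.4), and the shares of G and control lay above that interval. At 2 UMIs the shares were 33.3% in G, 31.0% in PH and 42.0% in control, and the interval of each ratio to control reached 1. Over all NK cells, 33 of 34 members were lower in G than in control, with a median of -1.09 over 14 measured ones, 10 of them at least 1.5-fold lower (background 10.1%). Among the 10, Ccnb2 (15.3 CPM in G), Cenpf (14.9), Prc1 (15.9) and Kif11 (17.9) passed the minimum level only through control. Nothing is therefore read from that count. Top2a was at 66.5 CPM in G, 52.3 in PH and 158 in control, and Ube2c at 31.2, 32.4 and 92.3. PH gave 111 NK cells with 313 module UMIs, and many members passed the minimum level only through control. Nothing is therefore read from the 16 of 19 measured members that were at least 1.5-fold lower in PH (background 20.3%). Cdca8 had 4 UMIs in PH and 66 in control, and Tpx2 2 and 55. With no minimum level, the median over the 34 members was -1.14 for PH and -1.16 for G, and in PH the median of measured members was -0.42 with no doublet removal in place of -1.46. Within positive NK cells, 34 of 34 members were lower in G, with a median of -0.66 and 12 of 21 at least 1.5-fold lower (background 11.3%). Of these, Hmmr, at 14.8 CPM in G and 60.5 in control, passed the minimum level only through control. Only 65 of the 320 positive NK cells in G reached 5 UMIs, against 34 of 102 in control. Positive cells thus differed in make-up, and the part of this in their levels was not tested. The median depth of NK cells was 4166 UMIs in G, 3086 in PH and 5578 in control, and the part of depth in these levels was not tested.

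In macrophages most members were lower in G than in control. At 5 UMIs, 2.11% were positive in G (32 of 1514, 1.45 to 2.97), 8.13% in PH (27 of 332, 5.43 to 11.6) and 5.96% in control (13 of 218, 3.21 to 9.98). These shares all lay within the interval of the neutrophil background of G by that rule (5.49%, 1.81 to 12.4), so they are not read as dividing cells. Mki67 was at 16.3 CPM in all macrophages of G, 49.1 in PH and 39.3 in control, and Top2a at 23.7, 62.7 and 56.7. Both were lowest in G. Over all macrophages, 30 of 34 members were lower in G than in control, though only 6 were measured, 3 of them at least 1.5-fold lower (background 15.3%) and 1 higher (17.9%). Of the 3 lower ones, Mki67 and Ube2c (16.9 CPM in G, 34.3 in control) passed the minimum level only through control. Nothing is therefore read from that count. The higher member was Cenpa, with a ratio of 1.87 (1.56 to 2.24). Cenpa was at 151 CPM in module-positive macrophages of G, chosen without it, and at 119 CPM in module-negative ones. In control these levels were 62.5 and 69.9 CPM, so much of its signal lay outside positive cells. With cells assigned by their own markers the median over all macrophages was -0.08 in place of -0.60. In PH, 1 of 10 measured members was at least 1.5-fold higher (background 13.6%) and 1 lower (10.6%). The higher one was Ckap2l, a spindle protein gene, with a ratio of 9.76 (6.27 to 15.997). In PH it was at 71.9 CPM in module-positive macrophages, chosen without it, and at 117.7 CPM in module-negative ones, so its level was not higher in positive cells. GPH had 51 macrophages, of which 32 reached 2000 UMIs and 4 of those had at least 5 module UMIs (12.5%, 3.51 to 29.0).

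Genes outside the module were tested between module-positive and module-negative vimentin-high cells. UMIs were summed per library and state and fitted with edgeR's quasi-likelihood test with the library as a block, which gives 4 pairs. Of 13274 genes tested, 2932 were higher in positive cells (22.1%) and 3000 lower (22.6%) at an adjusted p under 0.05. Positive cells were also deeper. Their median was 18767 UMIs in GPH, 17074 in G, 13946 in PH and 16859.5 in control, against 12331, 8362, 8317 and 10052 in negative cells. The part of depth in these counts was not tested. All 44 other mitosis genes rose (median log2 fold change 3.93), as did all 36 DNA replication genes (1.68) and all 16 chromatin and tubulin genes of dividing cells (1.43), beside a median of -0.04 for all genes. Knl1, the scaffold of the outer kinetochore, was at 45.7, 40.3, 54.8 and 35.8 CPM in positive cells of GPH, G, PH and control, against 0.558, 1.33, 1.71 and 1.44 CPM in negative cells (log2 fold change 4.99, edgeR adjusted p = 1.5e-09). Aspm, of the spindle poles, rose by 4.61, Ndc80 of the kinetochore by 4.03 and Pbk, a mitotic kinase, by 4.68. The histone genes Hist1h1b, Hist1h2ae and Hist1h2ap were also among the 10 with the largest rise of genes that reached 50 CPM. Tk1, which makes thymidine nucleotides for replication, rose by 3.23 and the ribonucleotide reductase gene Rrm2 by 2.89. Hmgb2, a chromatin protein of dividing cells, was at 1149, 2020, 2167 and 1617 CPM in positive cells of GPH, G, PH and control, against 185, 365, 297 and 239 CPM in negative cells.

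Of 17 tested inhibitor and p53 target genes, 10 fell and none rose. Btg2, an antiproliferative gene, fell by 1.07 on the log2 scale (edgeR adjusted p = 1.4e-06) and the CDK inhibitor gene Cdkn2c fell by 0.75, while Trp53inp1, a p53 target, fell by 1.04 although it was at 2.96 CPM in both states of GPH. Among G1 entry genes, 4 rose and 4 fell of 11. E2f3, a transcription factor of S phase entry, rose by 0.84 and Ccnd1 (cyclin D1) by 0.66, while the other D cyclin genes Ccnd2 and Ccnd3 fell by 0.76 and fell by 0.62. Genes among those that fell most were Lcn2, Saa3, Dcn, Ogn, Rarres2, Hmox1, C3, Prelp and Dpt. Dcn, the matrix proteoglycan decorin, was at 44.0, 38.8, 31.0 and 95.6 CPM in positive cells of GPH, G, PH and control, against 195, 236, 113 and 264 CPM in negative cells (log2 fold change -2.02). Lcn2, the iron-binding lipocalin, was at 25.0, 6.83, 5.67 and 1.23 CPM, against 119, 42.3, 28.6 and 4.62 CPM (log2 fold change -2.34). Each gene from Lcn2 to Dpt in that list was lower in positive cells of all 4 libraries. Of these genes, Prelp, Dcn and Ogn were also among the 10 leading genes of cluster 0, and Hmox1 and Dpt of cluster 1. Lcn2, Saa3, Rarres2 and C3 were not. Positive shares were 8.92% to 21.4% in cluster 0 and 7.98% to 14.2% in cluster 1, against 43.1% to 58.3% in cluster 3. The test summed over clusters, and the part of cluster in these falls was not tested. Positive and negative cells of a library share animals and droplets, so the 4 pairs are not 4 groups of animals.

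**Figure D5:**
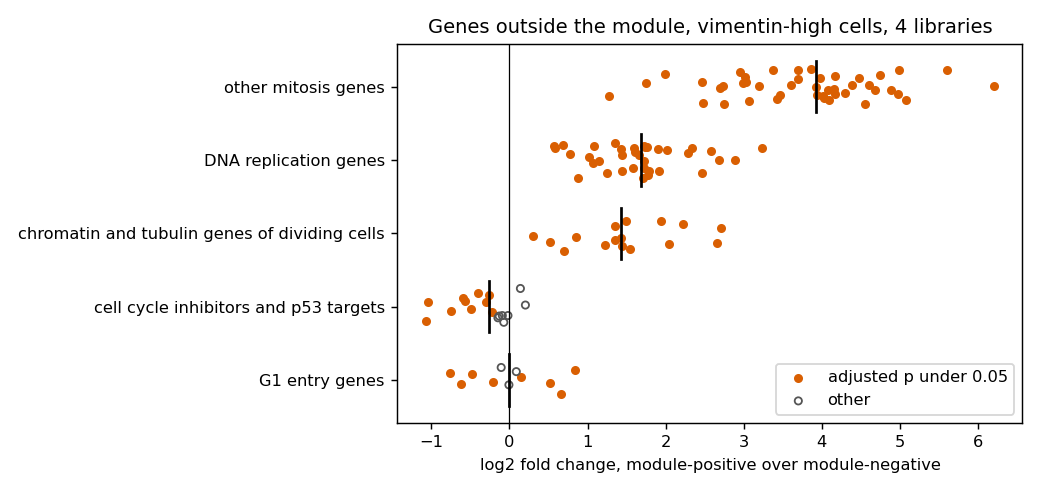
Log2 fold change, module-positive over module-negative vimentin-high cells, for the genes of 5 lists that hold no member; filled points have an edgeR adjusted p under 0.05, open points do not, and black bars are list medians. All points of the top 3 lists lie right of 0, with medians of 3.93, 1.68 and 1.43.

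In T cells the same test could use 3 libraries, since GPH held too few negative cells. Of 4603 genes, 283 were higher in positive cells (6.15%) and 218 lower (4.74%) by edgeR. The median depth of positive T cells was 4984 UMIs in G, 3266 in PH and 2946 in control, against 3454.5, 2928.5 and 2796.5 in negative ones. The part of depth was not tested here either. Rises were found for 11 of 13 other mitosis genes, 21 of 23 replication genes and 14 of 15 chromatin and tubulin genes, although the 2-UMI rule had taken in many cells for Arl6ip1. Rrm2 was at 65.8, 51.0 and 37.6 CPM in positive T cells of G, PH and control, against 5.99, 2.98 and 3.27 CPM in negative ones (log2 fold change 3.42). Kif15, a spindle kinesin, rose by 3.43. No gene of the inhibitor list rose and 3 of 12 fell. The counts rest on G, without which 83 genes were higher and 105 lower, and on the tool, since DESeq2 called 77 higher and 54 lower.

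Other mitosis and replication genes were also lower in GPH than in G over vimentin-high cells, counted by size alone and without a test. For GPH against G, 13 of 15 measured other mitosis genes were at least 1.5-fold lower, with a median log2 ratio of -0.87, as were 7 of 15 replication genes (-0.56), where 7.63% of all measured genes were lower by that much. For G against control, 6 of 13 other mitosis genes were at least 1.5-fold higher (median 0.40), where 3.24% of all measured genes were, while 1 of 18 replication genes was (0.24), which is near that background. Cell cycle inhibitors and p53 targets had a median of 0.69 for GPH against G, with 8 of 13 at least 1.5-fold higher, and G1 entry genes a median of 0.81, with 7 of 10 higher. Of all measured genes 28.0% were higher by that much, and their median was 0.26. Within module-positive cells the inhibitor list stood at 0.87, also with 8 of 13 higher, and G1 entry genes at 0.76, with 7 of 10 higher, where 24.3% of all measured genes were higher by that much, and other mitosis genes at 0.07.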

How the data were processed

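The values deposited by the authors are whole-number UMI counts for each feature and cell barcode, without normalization. The submitters' processing notes give Cell Ranger 6.1 and the mm10 build; per the file headers, the version was 7.0.1. How barcodes were called is not given in the sources used here. The 34 members, the gene lists and the tests were chosen with earlier results of these data known.

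Cells with at least 500 UMIs, 300 genes and at most 20% mitochondrial UMIs were kept. Scrublet's automatic threshold called 3, 0, 0 and 1 doublets in GPH, G, PH and control, so the highest scores were removed at 0.8% per 1000 cells (168, 1573, 2056 and 977 cells). Clusters came from 2000 variable genes, with 230 cell cycle genes left out, 30 components, 15 neighbours and Leiden resolution 1.0 in scanpy 1.11.5. A cluster was vimentin-high from a Vim level of 2000 CPM and Krt19-high from a Krt19 level of 1000 CPM, with Ptprc and Xist under 50 CPM. T, NK and macrophage clusters needed at least 3 markers at 50 CPM and a 2-fold excess, and no leading genes of another type. Vimentin-high clusters under 1/3 of their libraries' median depth were left out.

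Measured members had 20 CPM and 20 UMIs summed over a pair of libraries, so a member could pass through the library where it was higher. Intervals (95%) are Clopper-Pearson for shares and exact conditional binomial for ratios. Genes whose libraries are listed at 0 were set to 3 counts for the ratio. Values per library are given for members with the 3 largest or 3 smallest ratios over all vimentin-high cells and for 17 known ones; Bub1b, Kif20a and, in macrophages, Ckap2l lie outside this rule and were named after their values were seen. Other named genes are the 10 highest and 10 lowest of the test with one direction in all libraries and 50 CPM, and up to 4 a list by size; one gene that the rule names is not reported here. Tests used edgeR 4.0.16 on UMIs summed per library and state, with DESeq2 1.42.0 as the alternative. The library was a block, so p-values cover the spread over libraries of the difference between positive and negative cells. On data simulated under the counting model that the intervals assume, they held the true ratio in 95.3% of cases. UMIs that gather in few cells were not simulated, so this does not show that the intervals cover the spread between cells. The edgeR simulation used the same spread for all genes and no difference between libraries. The edgeR fit found 98% of 2-fold changes among 13200 genes in the vimentin-high design and 86.6% among 4479 in the T design. Gene positions and promoters come from GENCODE vM21 and RefSeq.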

Additional observations from a re-analysis of the deposited data

Results flagged for a closer look

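Under the same comparison, the median member moved in opposite directions in different classes. For G against control, the median log2 ratio over all cells was 0.62 in vimentin-high cells and 0.48 in T cells, but -1.09 in NK cells and -0.60 in macrophages. These medians rest on different members, 27 measured in vimentin-high cells, 22 in T cells, 14 in NK cells and 6 in macrophages. In NK cells and macrophages, some of them passed the minimum level only through control. With no minimum level, the medians were 0.64 in vimentin-high cells, 0.38 in T cells, -1.16 in NK cells and -1.19 in macrophages. With cells gated by their own markers the T median was 0.10 and the macrophage median -0.076, so the differences that use them depend on how cells were classed. The differences came to 1.71 between vimentin-high and NK cells, 1.22 between vimentin-high cells and macrophages, 1.57 between T and NK cells and 1.08 between T cells and macrophages. For PH against control, the median was 0.09 in vimentin-high and -1.46 in NK cells, a difference of 1.55. Many members passed the minimum level in NK cells only through control, so nothing is read from this difference. No alternative gave a lower NK median, and with no doublet removal it was -0.42. With 1 library per group, none of these differences was tested.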

How the results depend on the processing

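No paired analysis was possible between groups because each group is 1 library. In the test of positive against negative cells the library is the block; with no library block, 575 genes were higher and 185 lower in vimentin-high cells, and 56 higher and 1 lower in T cells. Leaving out each library in turn gave 2176 to 2821 genes higher and 2132 to 3155 lower in vimentin-high cells, and 83 (without G) to 445 (without control) higher and 105 (without G) to 186 lower in T cells, with 120 lower without PH. In T cells DESeq2 called 77 higher and 54 lower, and no filter gave 461 and 119.

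Of the alternative values of the main results, 364 stayed within their limits, 65 moved and 5 reversed; the cause was not tested. With no thinning, the vimentin-high ratios were 0.957 for G to control (reversed), 0.911 for PH to control, 0.865 for GPH to control, 0.949 for GPH to PH and 0.903 for GPH to G, and the Krt19-high ratio was 1.01 (reversed). Thinned to 5000 UMIs, they were 1.19 for G to control, 0.538 for GPH to G, 0.983 in Krt19-high cells and 1.02 for G to control in NK cells. At 5 UMIs, G to control was 1.60 in vimentin-high, 1.43 in T, 0.483 in NK cells and 0.354 in macrophages, GPH to G 0.363 in vimentin-high cells and PH to control 0.425 in NK cells. Without Arl6ip1 and Cks2 the T ratio of G to control was 1.33. Cells gated by their own markers gave 0.93 in Krt19-high cells, and low-depth clusters gave 1.03 for PH to control. The choice of 5 UMIs without both genes, here and in the medians, equal weight for clusters, and an unnamed lymphocyte cluster counted as T were added after seeing the data. At 5 UMIs without both genes, these ratios were 1.61, 1.47, 0.415, 0.228, 0.359 and 0.310 in the same order as at 5 UMIs. With equal weight for clusters, they were 1.66 for G to control, 1.03 for GPH to control (reversed), 1.07 for GPH to PH (reversed) and 0.624 for GPH to G.

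Median log2 ratios over all cells, with cells gated by their own markers, were 0.42 for G to control and -1.06 for GPH to G in vimentin-high cells, 0.13 in Krt19-high cells, and -0.27 for PH and -0.076 for G to control in macrophages. Centred on all measured genes, they were -0.62, -0.78 and -1.45 for GPH to control, PH and G, and -0.42 in Krt19-high cells. The Krt19-high median was -0.35 with no doublet removal and -0.049 with no minimum level, which gave -1.19 for G to control in macrophages. Within positive vimentin-high cells, G to control was 0.055 with cells gated, -0.079 at 5 UMIs, -0.097 at 5 UMIs without both genes, 0.028 thinned to 1000 UMIs, 0.45 thinned to 5000 and 0.63 with no thinning. GPH to G was -0.45 thinned to 5000, -1.11 with no thinning, 0.088 at 5 UMIs without both genes and -0.31 centred. GPH to control was -0.44 with no thinning and 0.011 at 5 UMIs without both genes, and GPH to PH -0.68 with no thinning. The Krt19-high median was -0.060 thinned to 5000, -0.24 with no thinning and -0.014 centred. In macrophages G to control reversed to 0.505 with cells gated.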
